A study of Mus musculus with 6 samples.

Results

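This section describes 6 abundant structural RNA genes and rRNA-like loci (Rpph1, Rn7sk, Rmrp, Rn4.5s, Mir6236 and Lars2) in cortex libraries from mice after stroke, and what their share of the counts went with in each library. They were picked by name for their large share of the counts, with control 2, a library low in genes detected, in view. Those shares are therefore given as a description with no test. Of the 6, 5 had a row in the table, out of 24553 genes and unnamed rows in all. No row among the 34755 analysed here matched Rn7sk, the RNA that holds the transcription elongation factor P-TEFb inactive, so it has no value. Cortical RNA came from male C57BL/6J mice, 15 weeks old, 14 days past a stroke: 3 libraries with SCFA (short-chain fatty acids, taken by drinking) and 3 control libraries, whose water was matched for salt. Both groups began this regimen at 6 to 8 weeks of age and kept it for 4 weeks. Per the labels' protocols both also drank 5% sucrose with the antibiotics Vancomycin, Ampicillin, Neomycin and Metronidazol. Per the same labels, snap-frozen tissue gave total RNA on RNeasy Mini columns, and the library kit (Ovation Human FFPE RNA-Seq) is one sold for human RNA. The sources used here do not give the side of the brain sampled. Libraries stood apart in other ways too: control 2 was highest in the summed RNA of exocrine pancreas markers and SCFA 2 in that of striatal markers.

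As background, RNA polymerase III makes short noncoding RNAs that do structural or catalytic work and are not translated. Rpph1 is the RNA of RNase P, which trims the leading end of precursor tRNAs, and Rmrp is the RNA of the related RNase MRP, which takes part in cutting precursor ribosomal RNA. Rn4.5s is a short nuclear RNA described in rodents, which RefSeq files under rRNA. Mir6236 is annotated as a microRNA and Lars2 encodes the mitochondrial leucyl-tRNA synthetase, which loads leucine onto tRNA in mitochondria. The selection calls these last 2 rRNA-like loci. No large ribosomal RNA sequence was at hand to compare with them, so that name was not tested. Rows of this kind matter for library quality because each count they take is a count not spent on messenger RNA.

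The sequences below are those of Rmrp and the start of Rpph1, shown because the reads counted in these rows have to come from such short stretches or from copies of them. Both were taken from GENCODE M21. On GRCm38, Rmrp is 271 bases long on chromosome 4, from 43492788 to 43493058 on the minus strand. For Rpph1, 319 bases long on the minus strand of chromosome 14, the first 35 bases are given (50807733 to 50807767).
Rmrp: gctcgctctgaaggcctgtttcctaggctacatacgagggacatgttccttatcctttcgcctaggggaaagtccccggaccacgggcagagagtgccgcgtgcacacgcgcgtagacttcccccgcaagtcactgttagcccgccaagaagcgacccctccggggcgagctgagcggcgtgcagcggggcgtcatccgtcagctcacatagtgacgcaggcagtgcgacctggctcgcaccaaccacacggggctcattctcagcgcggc
Rpph1, bases 1 to 35: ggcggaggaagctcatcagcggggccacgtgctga

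Guanine and cytosine made up 67.1% of Rpph1, 64.2% of Rmrp and 51.2% of the Lars2 transcript. In a search of the GENCODE M21 transcripts for stretches of at least 50 bases at 90% identity or more, 3 of the 4 members with a transcript had a match in another gene. Bases 1 to 204 of Rpph1 matched Rprl3 at 94.1% and Rprl2 at 93.1% identity, both annotated as RNase P RNA genes. Those copies held few counts, 25, 13 and 11 for Rprl3 in SCFA 1 to 3 and 32, 11 and 22 in controls 1 to 3, so the Rpph1 row took about 99.9% of the RNase P RNA counts in each library. Bases 36 to 268 of Rpph1 also lie in a GENCODE transcript of Ccnb1ip1, whose row stood at 0 in all 6 libraries. Bases 36 to 159 of Rmrp lie antisense to a GENCODE transcript of Ccdc107. Ccdc107 had 126, 164 and 137 counts in SCFA 1 to 3 and 200, 18 and 61 counts in controls 1 to 3. The sources used here do not give the strand setting of the counting, so reads of Rmrp and Ccdc107 cannot be told apart where they overlap.

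Lars2 is the member that codes for protein. Its RefSeq gene spans chromosome 9 from 123366927 to 123462675, and its transcript of 3894 bases has its untranslated 3′ part from base 2906 on. Within that part, bases 3233 to 3329 (chromosome 9, 123462003 to 123462099) were 94.8% identical to the transcript AA474408, and bases 3278 to 3349 (123462048 to 123462119) were 98.6% identical to Gm15564. Neither of these has a row matched by symbol in the table used here. Mir6236 had no match that met these limits.

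Rpph1 had 99875, 42337 and 80522 counts in SCFA 1 to 3, against 102571, 53022 and 73885 counts in controls 1 to 3. That was 1.08%, 0.354% and 0.581% of all counts with SCFA, against 0.933%, 0.465% and 0.711% in controls. SCFA 1 and control 1 were high and SCFA 2 and control 2 were low, so the groups overlapped. Rmrp had 11533, 8105 and 16704 counts in SCFA 1 to 3, against 10760, 17972 and 13231 counts in controls 1 to 3. Its shares were 0.124%, 0.0678% and 0.12% with SCFA, against 0.0979%, 0.158% and 0.127% in controls. Control 2 was the highest library for Rmrp and SCFA 2 the lowest, and the groups overlapped. Rn4.5s had 47639, 34962 and 121871 counts in SCFA 1 to 3, against 75180, 18398 and 99848 counts in controls 1 to 3. Its shares were 0.514%, 0.292% and 0.879% with SCFA, against 0.684%, 0.161% and 0.961% in controls. Control 2 was the lowest library and control 3 the highest, with the SCFA libraries between them. The other 6 genes that RefSeq files under rRNA stood at 0 in all 6 libraries. That does not measure all ribosomal RNA, since rows without a gene symbol could not be sorted by kind.

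Mir6236 and Lars2 had a different order. Mir6236 had 47808, 91979 and 100771 counts in SCFA 1 to 3, against 66606, 289883 and 66955 counts in controls 1 to 3. Its shares were 0.515%, 0.769% and 0.727% with SCFA, against 0.606%, 2.54% and 0.644% in controls. Control 2 stood far above the other 5 libraries, which overlapped. Mir6236 held between 94.4% and 98.8% of the counts of all 1184 miRNA genes in each library, and 735 of the other 1183 were at 0 in all 6. Lars2 had 82580, 113333 and 143819 counts in SCFA 1 to 3, against 67031, 219263 and 82993 counts in controls 1 to 3. Its shares were 0.89%, 0.947% and 1.04% with SCFA, against 0.61%, 1.92% and 0.799% in controls, again with control 2 highest.

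**Figure D1:**
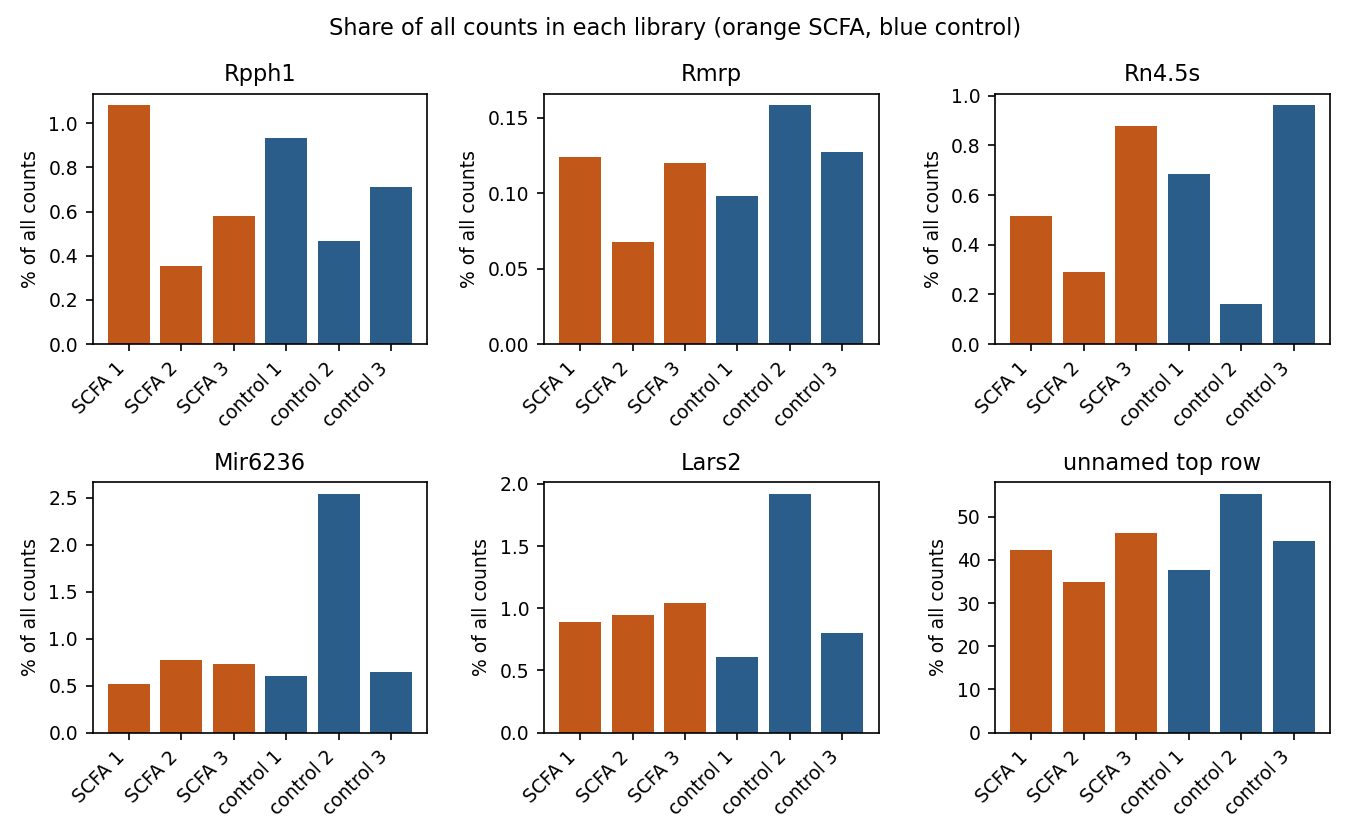
Bars show the share of all counts, in percent, that each of the 5 measured members and the unnamed row with the most counts took in each library, SCFA in orange and control in blue, with 1 bar per library. Control 2 is the highest bar for Mir6236 (2.54%), Lars2 (1.92%), Rmrp (0.158%) and the unnamed row (55.3%), and the lowest for Rn4.5s (0.161%).

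A larger row than any member, NR_046233, is paired with no gene in the tables used here, which do not give its kind of RNA. Below, the members and this row are called the structural rows for short, and the row itself the unnamed row. It took 42.2%, 35% and 46.3% of all counts in SCFA 1 to 3, against 37.7%, 55.3% and 44.5% in controls 1 to 3. Together the 5 members took 3.12%, 2.43% and 3.34% in SCFA 1 to 3, against 2.93%, 5.25% and 3.24% in controls 1 to 3. The members averaged 2.97% ± 0.477 with SCFA and 3.81% ± 1.26 in controls (SD, n = 3 each), a difference of -0.843 percentage points. Without control 2 the difference was -0.121 points. In control 2 the members and the unnamed row left 39.4% of the counts for everything else, 4493734 in number. In the other 5 libraries they left 50.4% to 62.6%, or 5071372 to 7485956 counts.

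Because the unnamed row is so large, a share of all counts falls for every other RNA where that row is high. Shares were therefore also taken over the counts outside the members and the unnamed row. On that base Mir6236 stood at 6.45% in control 2 and at 0.943% to 1.44% in the other 5 libraries, and Lars2 at 4.88% in control 2 and 1.03% to 2.06% elsewhere. Rmrp stood at 0.4% in control 2 and 0.108% to 0.244% elsewhere, above all others as before. Rn4.5s, at 0.409% in control 2 and 0.467% to 1.84% elsewhere, remained lowest in control 2. Rpph1 did not stay low: it was 1.18% in control 2, within the 0.566% to 1.97% of the others. On this base the lowest Rpph1 share was that of SCFA 2.

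CPM values, scaled by TMM (the edgeR method that balances libraries on the bulk of their genes), gave similar orders. In control 2, Mir6236 was 5.28 times the median of the other 5 libraries, Lars2 was 3.04 times, the unnamed row was 1.78 times and Rmrp was 1.72 times. Rpph1 was at 0.83 and Rn4.5s at 0.35 of that median. SCFA 2 was low for the 3 short RNAs made by RNA polymerase III, with Rpph1 at 0.39, Rmrp at 0.45 and Rn4.5s at 0.4 of the median of the other 5, while its Mir6236 and Lars2 were at 0.94 and 0.9. The members therefore fell into no common order of libraries.

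**Figure D2:**
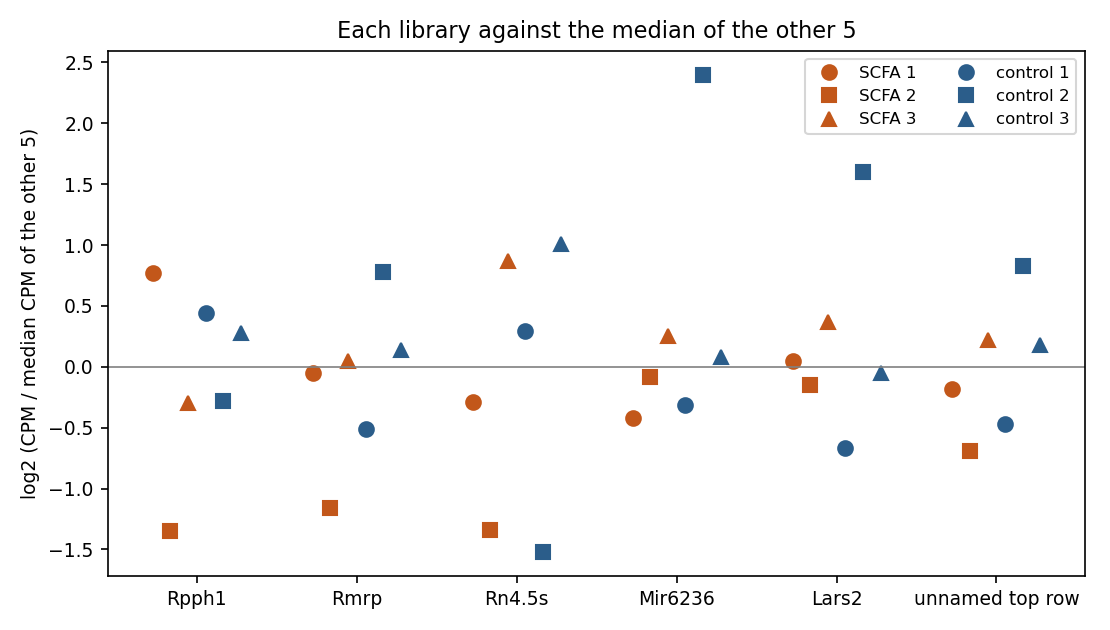
Each point is 1 library, with log2 of its CPM over the median CPM of the other 5 libraries on the vertical axis and the member on the horizontal axis, SCFA in orange and control in blue. Control 2 lies at 2.40 for Mir6236 and 1.60 for Lars2 and at -1.52 for Rn4.5s, and SCFA 2 lies between -1.16 and -1.35 for Rpph1, Rmrp and Rn4.5s.

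Ratios between rows also set control 2 apart. Per 100 counts of the unnamed row, Mir6236 had 4.6 in control 2 and 1.22 to 2.2 in the other 5 libraries. Lars2 had 3.48 in control 2 and 1.62 to 2.71 elsewhere. Rmrp had 0.285 in control 2 and 0.194 to 0.295 elsewhere. Rn4.5s had 0.292 in control 2 and 0.835 to 2.16 elsewhere. Per 100 counts of Rpph1, Rmrp had 33.9 in control 2 and 10.5 to 20.7 elsewhere, although both RNAs work with nearly the same set of proteins.

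Levels of different genes were compared per kilobase of transcript. The median over the 6 libraries was 53000 CPM per kilobase for Mir6236, 31800 for Rn4.5s, 21200 for Rpph1, 4520 for Rmrp and 2170 for Lars2. Mir6236 was divided by its annotated 123 bases, and Rn4.5s, with no transcript sequence at hand, by its RefSeq span of 174 bases. Such short lengths weigh on these values, so their order is a description only. Lars2 was set beside the 18 other mitochondrial aminoacyl-tRNA synthetase genes, its family. The highest of these was Gars, which serves cytosol and mitochondria, at a median of 49.6 CPM per kilobase, so that Lars2 stood 43.8 times above it. Lars, the cytosolic leucyl-tRNA synthetase gene, had 15.3. Control 2 did not stand apart for the family as it did for Lars2. The 18 genes summed to 314, 299.8 and 286.4 CPM in SCFA 1 to 3, against 286.5, 329.5 and 294 CPM in controls 1 to 3. Within the family, Fars2 had 0 counts in control 2 and 30 to 100 elsewhere, and Sars2 had 1 count in control 2 and 57 to 99 elsewhere.

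Genes with at least 1 count numbered 14948, 15477 and 15694 in SCFA 1 to 3, against 15623, 13013 and 15135 in controls 1 to 3. Control 2 lay 1935 genes below the next lowest library, while the other 5 spanned 746. The groups averaged 15373 ± 384 genes with SCFA and 14590 ± 1388 in controls (SD, n = 3 each). Without control 2 the SCFA mean was 6 genes below the control mean. At a minimum of 10 counts control 2 had 11070 genes, against 11595 to 12336 in the others, so the gap was widest among genes with few counts. Control 2 had 1307 genes with 1 to 4 counts, against 1986 to 2302 elsewhere. Control 2 lacked 1123 genes that each of the other 5 libraries detected.

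The library with the fewest genes was also the one with the highest share of the unnamed row and of Mir6236 and Lars2 together (4.47%, against 1.22% to 1.76% in the others). Among the other 5 libraries that order did not hold. SCFA 3 had the most genes, 15694, with the highest unnamed row (46.3%) and the highest sum of Mir6236 and Lars2 (1.76%) of those 5. SCFA 1 had the fewest genes of those 5, 14948, with shares of 42.2% and 1.41%. For Rpph1, Rmrp and Rn4.5s together, control 2 and SCFA 2 had shares of 0.784% and 0.714% of all counts, and 1.99% and 1.14% of the counts outside the members and the unnamed row, with 13013 and 15477 genes. Since 1 library lies apart from 5 others, no correlation coefficient is given and the relation cannot be tested here.

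**Figure D3:**
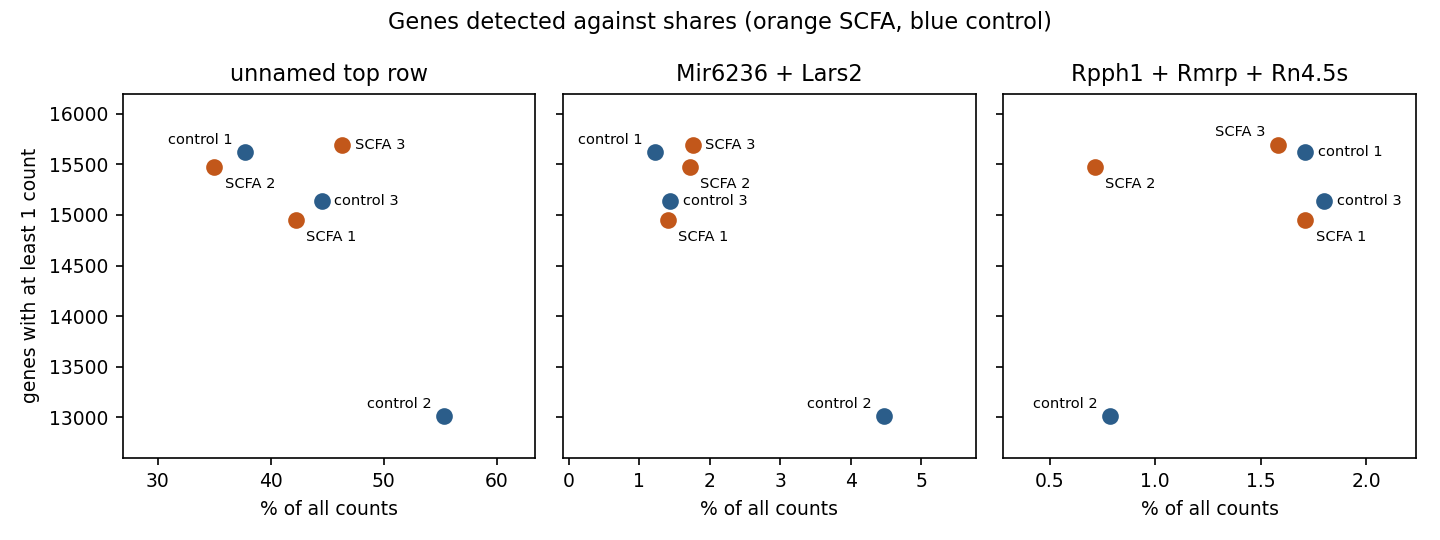
Genes with at least 1 count (vertical axis) are plotted against the share of all counts, in percent, of the unnamed row, of Mir6236 and Lars2 together, and of Rpph1, Rmrp and Rn4.5s together, with 1 point per library, SCFA in orange and control in blue. Control 2 sits alone at 13013 genes, while the other 5 libraries lie between 14948 and 15694 with no common slope.

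Libraries with fewer counts outside the structural rows have less depth for other genes, so detection was also computed at 1 depth for all. The expected number of genes in a draw of 4493734 counts from outside the members and the unnamed row was 14846, 15043 and 15302 in SCFA 1 to 3, against 15296, 13007 and 14961 in controls 1 to 3. Control 2 stayed 1839 genes below the next library at equal depth, close to the 1935 before. With drawing from all counts, at 9275252, control 2 had 12859 genes and the others 14948 to 15481.

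**Figure D4:**
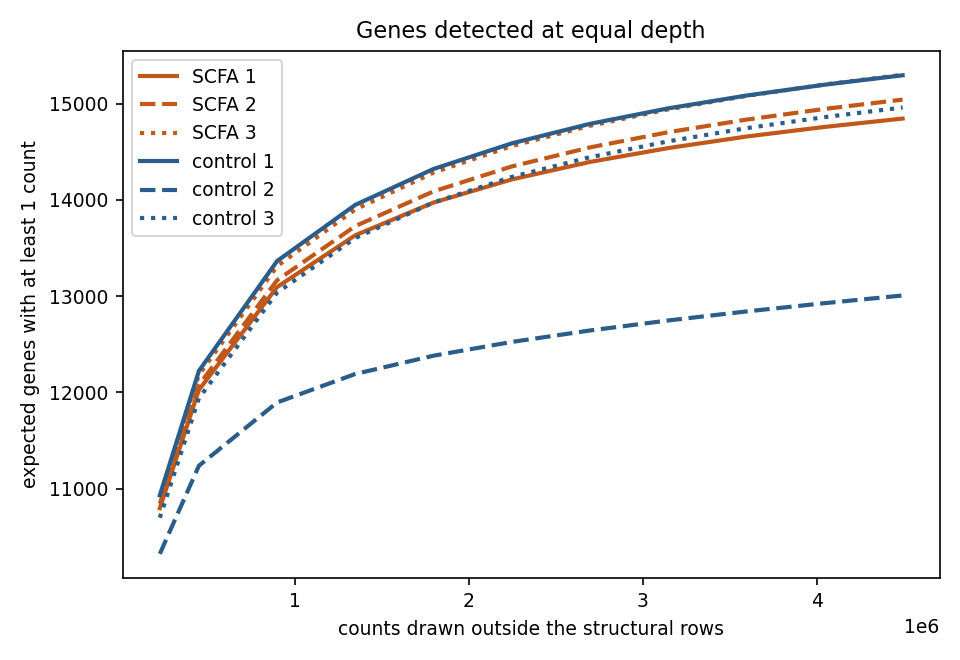
Curves give the expected number of genes with at least 1 count (vertical axis) for a given number of counts drawn from outside the structural rows (horizontal axis), SCFA in orange and control in blue, with line style marking the library. At 4493734 counts control 2 reaches 13007 genes and the other 5 libraries 14846 to 15302.

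The genes that control 2 lacked were not only weak ones. For each library, genes were taken that had at least 5 counts in each of the other 5 and whose mean share there predicted 20 counts or more. Of 9878 such genes control 2 had 159 at 0 (1.61%), against 2 to 11 genes (0.0197% to 0.111%) in the other libraries. The highest prediction among these genes, named after their values were seen, was for Pdk4, a kinase that restrains pyruvate use, at 94.0 counts. Pdk4 had 114, 177 and 154 counts in SCFA 1 to 3, against 90, 0 and 123 in controls 1 to 3. A further measure was the scatter of genes around the median of the other 5 libraries. Its SD on the log2 scale was 1.10 in control 2 and 0.55 to 0.65 in the others.

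By transcript length and base composition control 2 differed little from the rest. Over 4 equal groups of 11766 genes by transcript length, the median log2 ratio of control 2 to the other 5 libraries lay between -0.04 and 0.00. Over 4 groups by percent of guanine and cytosine it lay between -0.11 and 0.02. SCFA 2 had a wider range over the latter, from -0.15 in the group poorest in guanine and cytosine to 0.14 in the richest.

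**Figure D5:**
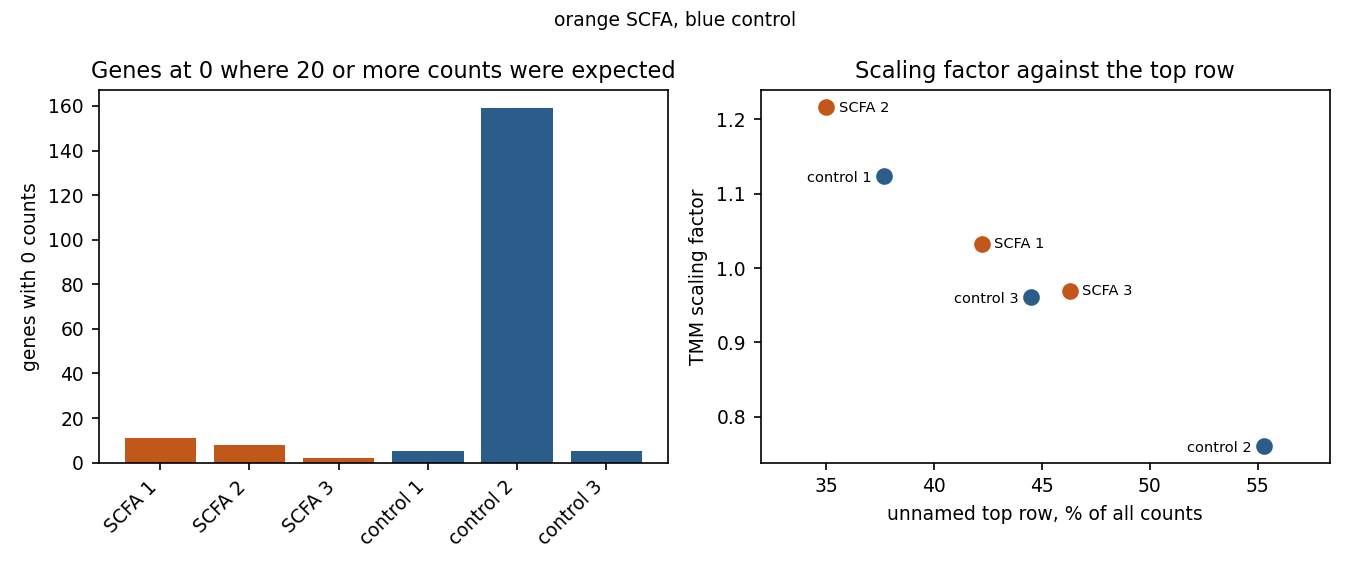
Left, bars show the number of genes at 0 counts where at least 20 were predicted from the other 5 libraries. Control 2 has 159 and the others 2 to 11. Right, the TMM scaling factor (vertical axis) is plotted against the share of the unnamed row in percent (horizontal axis), with 1 point per library, and runs between 1.216 in SCFA 2 and 0.7612 in control 2, SCFA in orange and control in blue.

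The structural rows also weighed on the total counts that the scaling factors correct. TMM factors were 1.032, 1.216 and 0.9691 in SCFA 1 to 3, against 1.124, 0.7612 and 0.9611 in controls 1 to 3, lowest where the unnamed row was highest. With the members and the unnamed row left out of the library sizes the factors lay between 0.9662 and 1.021. The fit on those sizes likewise called 1 gene higher and 9 lower with SCFA. The log2 fold change of Mir6236 was -1.27 in both fits, so the scaling between libraries hardly depended on these rows. Without any factor, the median log2 fold change of all genes moved to 0.18 from 0.01 in the TMM fit.

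The comparison of SCFA with control asks how the treatment alters the cortex after stroke, and it was fitted over all genes. No member passed at an adjusted p under 0.05 (Benjamini-Hochberg, over all genes, from edgeR's quasi-likelihood fit). That is 0 of 5 members higher, where 1 of 11969 genes tested (0.00835%) was, and 0 of 5 lower, where 9 genes (0.0752%) were, or 10 genes (0.0835%) in both directions. Nor did any member have all 3 SCFA libraries on one side of all 3 controls, as 12.2% of genes had. At an unadjusted p under 0.05 there was 1 member, Mir6236, against 5.76% of all genes, and with DESeq2 and limma-voom 0 members were called. Since control 2 was in view when the members were picked, its values weigh on these folds. Mir6236 averaged 6273 ± 1250 CPM with SCFA and 15170 ± 15800 CPM in controls (SD, n = 3 each). Its log2 fold change was -1.27 (SE 0.502, edgeR adjusted p = 0.864). Without control 2 it was 0.05. Lars2 averaged 9042 ± 1500 CPM with SCFA and 13000 ± 10700 CPM in controls, a log2 fold change of -0.52 (SE 0.397, edgeR adjusted p = 0.902), and without control 2 it was 0.40. Both signs turned with that library left out.

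Rpph1 averaged 6446 ± 3780 CPM with SCFA and 7270 ± 1100 CPM in controls (SD, n = 3 each), with a log2 fold change of -0.17 (SE 0.315, edgeR adjusted p = 0.961). It was -0.70 without SCFA 1 and 0.18 without SCFA 2. Rmrp averaged 1002 ± 385 CPM with SCFA and 1422 ± 606 CPM in controls, a log2 fold change of -0.51 (SE 0.304, edgeR adjusted p = 0.889), which was -0.13 without control 2 and -0.21 without SCFA 2. Rn4.5s averaged 5484 ± 3360 CPM with SCFA and 6067 ± 3940 CPM in controls, a log2 fold change of -0.15 (SE 0.465, edgeR adjusted p = 0.977). It was 0.22 without SCFA 2, -0.72 without SCFA 3, -0.55 without control 2 and 0.42 without control 3. For each of the 5 members the SD of at least 1 group exceeded the difference between the group means.

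The protein partners of these RNAs were described from lists. Of 11 proteins of RNase P and RNase MRP, 10 were tested and 0 passed in either direction, with a median log2 fold change of -0.19 beside 0.01 for all genes. The most counted were Pop5 (log2 fold change 0.24, SE 0.315), Rpp14 (-0.13, SE 0.279) and Pop4 (0.24, SE 0.263). Their summed level was 104.2, 103.7 and 92.08 CPM in SCFA 1 to 3, against 101.1, 117 and 101.7 CPM in controls 1 to 3. A sum over 11 genes evens out single genes, so its range cannot be set beside that of Rpph1 or Rmrp. Singly, Pop5 ran from 12.7 CPM in control 1 to 31.9 CPM in control 2. Rpp14 ran from 14.5 CPM in SCFA 3 to 28.8 CPM in control 2, and Pop4 from 12.7 CPM in control 2 to 20.5 CPM in SCFA 2. Of 27 subunits and factors of RNA polymerase III, 22 were tested and 0 passed, with a median of -0.08. Bdp1, a part of the initiation factor TFIIIB, had -0.23 (SE 0.155), Gtf3c1, a part of TFIIIC, 0.18 (SE 0.158), and the subunit Polr3k -0.54 (SE 0.239). This list summed to 651.6, 583.2 and 623.4 CPM in SCFA 1 to 3, against 646.1, 707.6 and 587.4 CPM in controls 1 to 3.

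Of 7 genes for partners of the RNA of Rn7sk and for P-TEFb, 6 were tested and 0 passed (median 0.05). Ccnt2, a cyclin of P-TEFb, had a log2 fold change of -0.04 (SE 0.201), Hexim1, its inhibitor, 0.17 (SE 0.188) and the kinase gene Cdk9 -0.31 (SE 0.24). Of 8 proteins of the signal recognition particle, which carries ribosomes to the endoplasmic reticulum, 7 were tested and 0 passed (median -0.14), with Srp54b at -0.14 (SE 0.151), Srp72 at -0.14 (SE 0.152) and Srp54a at -0.13 (SE 0.169). Srp54a and Srp54b are close copies, so the split of reads between them is uncertain. Of the 18 mitochondrial synthetases 13 were tested and 0 passed (median 0.06), with Gars at -0.08 (SE 0.16), Iars2 at 0.11 (SE 0.214) and Rars2 at 0.18 (SE 0.237). None of these lists held a called gene in either direction.

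Among 27 other small structural RNAs, 7 had a row and 5 were tested, with 0 called and a median of -0.25. Rnu12, an RNA of the minor spliceosome, was the most abundant. It had 4564, 2229 and 5179 counts in SCFA 1 to 3, against 1410, 4659 and 2778 counts in controls 1 to 3, with overlap between the groups and a log2 fold change of 0.13 (SE 0.446, edgeR adjusted p = 0.979). Rnu11, of the same spliceosome, had 217, 90 and 208 counts in SCFA 1 to 3, against 237, 114 and 214 counts in controls 1 to 3. Vaultrc5, a vault RNA, had 48, 3 and 25 counts in SCFA 1 to 3, against 16, 35 and 30 counts in controls 1 to 3. SCFA 2 was the lowest library for Rnu11 and Vaultrc5, and control 1 the lowest for Rnu12.

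Lars2, Mir6236, Rpph1 and Rn4.5s stood among the 10 rows with the most counts, while Rmrp did not. Ranked over the 6 libraries, the unnamed row came first, then Cdr1 and Malat1, then Lars2, Mir6236, Rpph1 and Rn4.5s, followed by Camk2n1, Shank1 and Kif5a. Rmrp ranked between 10 (control 2) and 82 (SCFA 2) within a library. Cdr1, whose reads cannot be told apart from its antisense circular RNA here, took 1.97%, 1.16% and 1.55% of counts in SCFA 1 to 3, against 2.41%, 0.626% and 2.4% in controls 1 to 3. Malat1, a nuclear noncoding RNA, took 1.3%, 1.4% and 1.14% in SCFA 1 to 3, against 1.76%, 1.07% and 1.23% in controls 1 to 3. Camk2n1, which inhibits a calcium-dependent kinase, the synaptic scaffold gene Shank1 and the kinesin gene Kif5a each took 0.122% to 0.296%. Of all counts, each of these 5 genes had its lowest share in control 2. Of the counts outside the members and the unnamed row, Cdr1 was still lowest there (1.59%, against 1.85% to 4.59% in the others), while Malat1 (2.71% in control 2, 2.24% in SCFA 2), Camk2n1, Shank1 and Kif5a were lowest in SCFA 2.

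Genes most like the members were found by Pearson r of log2 CPM over the 6 libraries among 10047 genes. They are a description only, since these libraries share their scaling. Over 6 libraries the best matches among so many genes also reach a high r without any link to the members. For Rpph1, Rmrp and Rn4.5s summed these were Gsdme (r = 0.994), Adcy1 (0.992), Atg10 (0.988), Serf1 (0.988) and Unc80 (0.987). The best match, Gsdme, had 8.775, 5.5 and 8.858 CPM in SCFA 1 to 3, against 8.661, 6.8 and 9.61 CPM in controls 1 to 3. For Mir6236 and Lars2 summed they were Serp2 (0.989), Pgpep1 (0.980), Ltbr (0.980), Mplkip (0.979) and Brms1l (0.977). The unnamed row had r = 0.871 with the second sum (rank 263) and 0.620 without control 2 (rank 1155), and with the first sum 0.279 over all 6 libraries and 0.827 without control 2. Serp2 had 4.074, 3.85 and 4.541 CPM in SCFA 1 to 3, against 3.076, 8.298 and 3.904 CPM in controls 1 to 3, highest in control 2. Over the 5 libraries without control 2 the closest to the first sum were Hpf1, Cbr4, Gsdme, Ppfia3 and Abhd17a, and the closest to the second were Pelo, Ndst1, Phf10, Calm3 and Etl4. Gsdme was named in both sets for the first sum, and no gene was named in both for the second.

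Total counts ran from 9275252 to 13862756 per library, and the 95% Wilson interval of each share given here was at most 2.18% of that share to either side. General neuron markers summed to 1160 to 1324 CPM with SCFA and 1039 to 1185 CPM in controls. Most of that sum was Slc17a7, the transporter gene of excitatory neurons, while Rbfox3 had at most 10 counts in a library, and the list does not tell cortex from other brain regions. Astrocyte markers summed to 521.1 to 894.6 CPM with SCFA and 343.3 to 401.1 CPM in controls, with 0 of 4 called. The 4 choroid plexus markers summed to 8.566, 9.969 and 8.263 CPM in SCFA 1 to 3, against 11.17, 8.759 and 6.007 CPM in controls 1 to 3. Of these, Folr1 was at 0 in all 6 libraries, Kcnj13 had counts in all 6 and Kl in all but control 2. Ttr had 13, 28 and 2 counts in SCFA 1 to 3 and 0 in each control. Of 8 exocrine pancreas markers, all 8 were called lower with SCFA in edgeR, where 9 of 11969 genes tested (0.0752%) were. This list and the striatal one were written with earlier results of these data known, so that count is a description only. It also depended on the setting: with limma-voom, or in edgeR with any 1 SCFA library left out, 0 genes were called lower. The 8 markers summed to 1.149, 0.275 and 0.6699 CPM in SCFA 1 to 3, against 190, 336.7 and 32.44 CPM in controls 1 to 3. Cela2a, Try5 and Cpa1 were at 0 in every SCFA library, while all 8 markers had counts in each control. Control 2 was thus also the highest library for the sum of these markers. Most of its sum was Amy2a5, at 198.9 CPM. Control 1 was above control 2 for Cpa1 (7.9 against 7.4 CPM), Ctrb1 (10.1 against 9) and Cpb1 (23.7 against 21.8), and control 2 was the highest for the rest. The part of these markers in the other values of control 2 was not tested. Striatal markers summed to 40.22, 221.5 and 39.6 CPM in SCFA 1 to 3, against 53.42, 44.37 and 37.04 CPM in controls 1 to 3, with 0 called. SCFA 2, low in Rpph1, Rmrp and Rn4.5s, was the highest for this sum, and the part of striatal markers in those low values was not tested. In bulk tissue, fewer cells of a type and less RNA per cell cannot be told apart.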

How the data were processed

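RNA-seq counts from 6 cortex libraries, 3 with SCFA and 3 salt-matched controls, were used as the authors deposited them: raw read counts per RefSeq transcript. CASAVA 1.8.2 and featureCounts were used with mm10, per the submitters' processing notes. Not given in the sources used here were the aligner, how strands were counted, or what was done with reads that map to several places. Such reads matter for RNAs with copies in the genome. Of 34755 rows, 34424 (99.05%) were matched to symbols through RefSeq's GRCm38.p6 table and summed per symbol. Each library was taken as 1 animal, from the design text.

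Groups were compared in edgeR 4.0.16 (R 4.3.3) by its quasi-likelihood test, two-sided and with no covariate, after TMM scaling. It ran on the 11969 genes passing filterByExpr, with a minimum count of 10 and a minimum total of 15. CPM uses TMM-scaled library sizes, and log2 CPM a prior count of 2. Expected genes at equal depth follow the hypergeometric formula. Transcript sequences came from GENCODE M21 and were searched with BLAST 2.17.0 (e-value 1e-05). Length and composition ratios used a pseudocount of 0.5 CPM, and 98.4% of genes had a length. The fit was tested on simulated data. Alternatives used DESeq2 1.42.0 and limma 3.58.1, other scalings and filters, a replicate block and omitted libraries. The members, lists and libraries in view were chosen with earlier results of these data known. Sequence matches, missing genes, ratios between rows, and length and composition were added after the files were seen. Named genes are the members, the 10 largest rows, 5 most alike genes per sum and the 3 most counted of each list. Some items are not reported here. Intervals cover counting error only.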

Additional observations from a re-analysis of the deposited data

How the results depend on the processing

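No member was called under any of 17 alternatives to the main test, except Mir6236: with every detected gene kept in the fit, 1 member was lower (Mir6236, edgeR adjusted p = 1.06e-11, against 0.864 in the filtered fit). The cause was not tested. The sign of the fold turned for 4 of 5 members with 1 library left out. Leaving out 1 library gave log2 fold changes of -0.70 to 0.18 for Rpph1, -0.72 to 0.42 for Rn4.5s, -1.67 to 0.05 for Mir6236 and -0.89 to 0.40 for Lars2, and -0.76 to -0.13 for Rmrp, which stayed below 0. Without control 2 and SCFA 2 together, Rpph1 had 0.07, Rmrp 0.16, Mir6236 0.05, Lars2 0.49 and Rn4.5s -0.20. Over all genes, where 1 was higher and 9 lower, 30 and 25 were called without a filter, 13 and 16 by DESeq2, and limma-voom called 0 and 0 (421 and 384 at an unadjusted p under 0.05). Without control 2 and SCFA 2, 14 were higher. With each library dropped in turn the counts were 0 to 8 higher and 0 to 13 lower (edgeR; at an unadjusted p under 0.05, 164 to 477 and 218 to 382). With the replicate block, 10 were higher and 12 lower and 0 members were called. Same-numbered libraries had deviations correlated over all genes at -0.00206, 0.0101 and -0.00525, and other pairs at -0.00834 to 0.0119. Such values, over all genes at once, cannot show whether numbers pair animals, and the labels do not say. The SE with the block was 0.118 for Rn4.5s (0.465 without it) and 0.195 for Rpph1 (0.315 without it). It was 0.361 for Mir6236 (0.502 without it), 0.33 for Lars2 (0.397) and 0.321 for Rmrp (0.304). The difference in member share, -0.843 points of all counts, was -2.31 without the unnamed row in the base and -2.74 per counts of coding rows. Leaving out 1 library gave -1.28 to -0.121. Genes detected, SCFA minus control, differed by 783. With 1 library left out the difference ran between -6 (without control 2) and 1299 (without control 1), and it was 434 to 972 under the other alternatives.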
